A study of Mus musculus with 20 samples.

Results

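The 8 genes described here were Slc10a6, Slc7a10, Inmt, Dpep1, Xdh, Lims2, Aldh1l1 and Sult5a1, and they were chosen by their very large falls in E18.5 lungs that lacked the glucocorticoid receptor (GR, gene Nr3c1) in mesenchymal cells. Every probe set whose only gene symbol was one of these names was taken, which gave 10 of the 22690 probe sets on the array and 8 of its 12393 named genes. Because the E18.5 values chose the genes, those values are given below as a description and carry no test. The same holds for every comparison that uses the E18.5 animals, that is, the change between the stages in either genotype.

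RNA of the left lung lobe was measured on Affymetrix arrays in C57Bl6 mouse embryos, 1 animal to an array, in 4 groups of 5 animals. Controls, labelled GR flox, carried floxed GR alleles, express GR in mesenchymal cells and were taken at embryonic day E16.5 or E18.5. Mutants (GRCol1-Cre) were taken at the same days and carried in addition a Cre transgene on a bacterial artificial chromosome with the locus of the collagen gene Col1a2, which removes GR in mesenchymal cells. Other cells of the lung are meant to keep the receptor. The lobe was measured whole, so fewer cells of a type and less RNA per cell cannot be told apart in any value below.

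Glucocorticoids are steroid hormones that rise in the fetus shortly before birth and drive late maturation of the lung. They bind GR, which then enters the nucleus, binds DNA at glucocorticoid response elements, often as a pair of receptor molecules on an inverted repeat, and switches target genes on or off. The 8 genes do not form a single pathway. They encode a carrier of sulfated steroids (Slc10a6) and a sulfotransferase (Sult5a1), an amino acid transporter (Slc7a10), enzymes of methyl transfer (Inmt), peptide cleavage (Dpep1), purine breakdown (Xdh) and folate metabolism (Aldh1l1), and an adaptor of cell adhesion (Lims2).

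At each stage the mutants and controls did not overlap in Nr3c1. The brightest Nr3c1 probe set was at 8.58 to 9.15 (controls) and 6.31 to 7.50 (mutants) at E16.5, then at 9.02 to 9.57 (controls) and 7.56 to 8.05 (mutants) at E18.5. Its position against the floxed exons is unknown from the files. Of 13 lung markers 12 were above a log2 value of 4, which is used here as the border of dim values, in at least 1 array, and the probe set of the lung epithelial regulator Nkx2-1 was dim in all 20. The sexes, read from Xist and Y-linked genes, were not balanced: 1 of 5 E16.5 controls but 5 of 5 E16.5 mutants were female, and 3 of 5 controls and 2 of 5 mutants at E18.5. The labels call each array a separate animal, and litters were not used here.

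The 250 bases before the RefSeq start (build GRCm38.p6) are shown for 4 of the genes: for Slc10a6 and Inmt, which had the deepest falls of all genes tested, and for Dpep1 and Sult5a1, which lie side by side on chromosome 8. The Slc10a6 stretch is chr5:103629404-103629653 (minus strand), Inmt chr6:55174991-55175240 (minus strand), Dpep1 chr8:123185985-123186234 (plus strand) and Sult5a1 chr8:123158281-123158530 (minus strand). Each is written 5′ to 3′ toward the gene, and capitals mark matches to the motifs described next.
Slc10a6: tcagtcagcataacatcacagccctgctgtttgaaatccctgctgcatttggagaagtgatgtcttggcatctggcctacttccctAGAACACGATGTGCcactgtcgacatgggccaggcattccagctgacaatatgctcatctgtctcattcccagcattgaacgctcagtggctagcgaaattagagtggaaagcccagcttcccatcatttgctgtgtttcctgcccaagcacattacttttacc
Inmt: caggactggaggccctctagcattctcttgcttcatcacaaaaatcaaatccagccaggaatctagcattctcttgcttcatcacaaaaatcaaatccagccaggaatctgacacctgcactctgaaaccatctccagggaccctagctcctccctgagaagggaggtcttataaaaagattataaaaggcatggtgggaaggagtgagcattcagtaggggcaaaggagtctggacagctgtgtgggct
Dpep1: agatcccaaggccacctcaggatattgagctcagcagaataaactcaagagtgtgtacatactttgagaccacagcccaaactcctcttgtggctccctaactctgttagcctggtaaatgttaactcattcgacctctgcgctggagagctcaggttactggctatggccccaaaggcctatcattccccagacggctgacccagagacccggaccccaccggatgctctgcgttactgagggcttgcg
Sult5a1: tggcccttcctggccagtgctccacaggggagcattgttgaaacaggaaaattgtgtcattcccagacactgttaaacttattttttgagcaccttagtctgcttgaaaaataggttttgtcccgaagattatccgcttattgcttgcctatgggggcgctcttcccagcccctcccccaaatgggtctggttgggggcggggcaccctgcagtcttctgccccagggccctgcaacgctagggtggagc

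RefSeq promoters of 300 bases (250 before and 50 after the start) were found for 6 of the 8 genes: Slc10a6, Slc7a10, Inmt, Dpep1, Aldh1l1 and Sult5a1. They were searched on both strands for the single receptor hexamer AGAACA, read as TGTTCT on the opposite strand, and for the full inverted repeat GNACANNNTGTNC, which reads the same on both strands and can overlap a hexamer. Slc10a6 was the gene with a match. Its repeat GAACACGATGTGC lies at bases -163 to -151 from the start and overlaps a hexamer at -164 to -159. The repeat occurs in 0.475% of the 32851 mouse promoters of this length, and the hexamer in 19.0%. The stricter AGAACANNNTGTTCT, present in 0.00913% of all promoters, was in none of the 6. A match is a description of the letters and does not show that the receptor binds there, and a missing match covers only this window.

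The 6 promoters were of different kinds. Slc7a10 had 70.7% G and C and 24 CpG pairs, while Inmt had 47.7% and 0 CpG pairs, against medians of 52.7% and 7 over all promoters. Slc10a6 (48.0% and 4), Dpep1 (52.7% and 9), Sult5a1 (54.7% and 5) and Aldh1l1 (60.0% and 9) lay between.

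All 8 genes were low at E16.5, rose strongly in controls by E18.5, and were lower in all 5 E18.5 mutants than in all 5 E18.5 controls. Of all 8068 genes tested, 9.13% showed this last separation, and here it follows from how the genes were chosen. In 5 of the 8, Slc10a6, Slc7a10, Inmt, Lims2 and Aldh1l1, the mutant mean at E18.5 was dim, so the depth of their falls is limited by the floor of the values. These 5 were also dim in all E16.5 animals of both genotypes. In mutants these 5 genes thus showed a missing or small rise between the stages, within dim values. Days between the stages were not sampled. Dpep1 was above the border in all 5 E18.5 mutants by its brighter probe set, though in 2 of 5 by its other one, Xdh was above it in 2 of 5, and Sult5a1 was never dim in any animal.

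**Figure D1:**
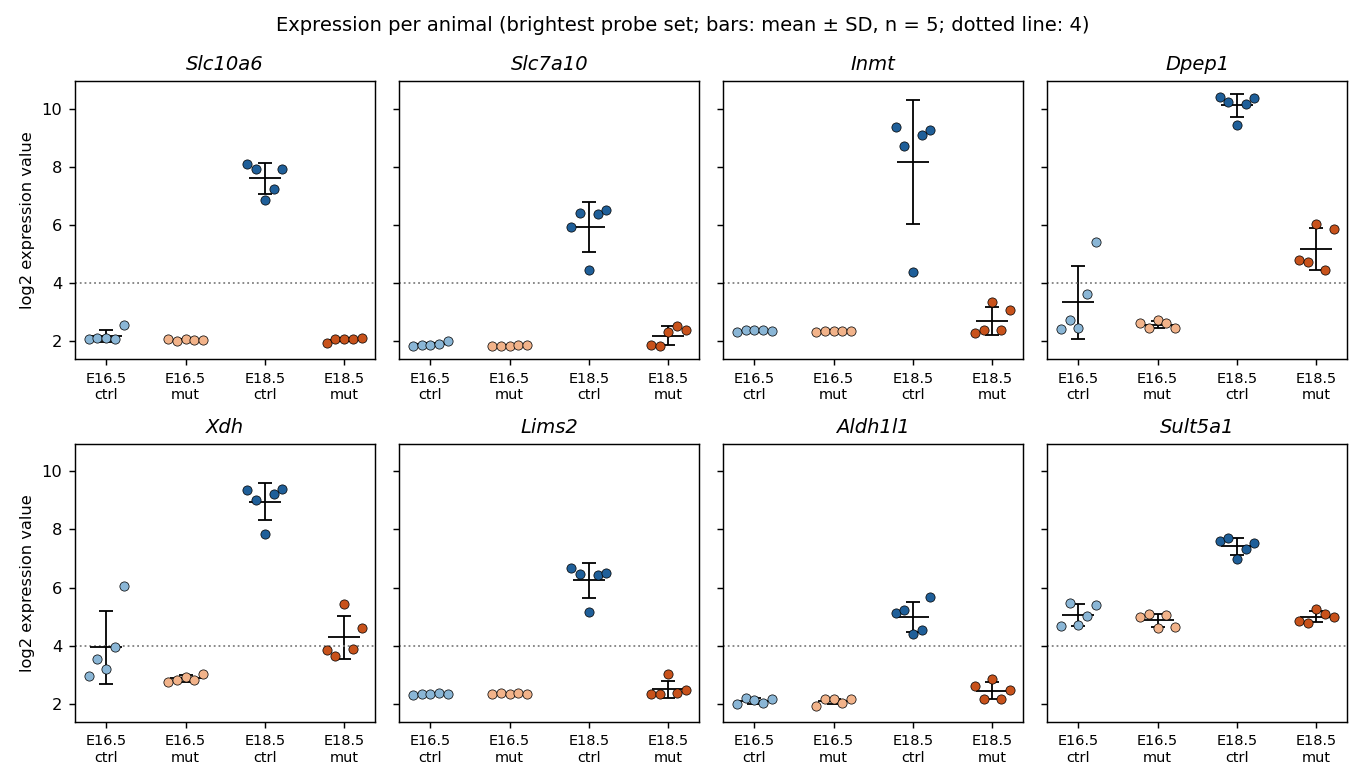
Log2 expression of the 8 genes in every animal (points, brightest probe set of each gene) by group, with the mean ± SD of 5 animals and a dotted line at the dim border of 4. In each panel the 5 E18.5 controls lie above all other animals, with 1 low Inmt control at 4.39, and 1 E16.5 control stands above its group for Xdh (6.07) and Dpep1 (5.41).

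Slc10a6 encodes a sodium-dependent carrier that brings sulfated steroid hormones into cells. Its E18.5 controls read 8.08, 7.92, 6.85, 7.22 and 7.93, and its E18.5 mutants 1.96, 2.07, 2.10, 2.09 and 2.11. The E16.5 controls read 2.08, 2.12, 2.11, 2.10 and 2.55 and the E16.5 mutants 2.03 to 2.09. Thus the E18.5 mutants sat where lungs had been at E16.5, and the lowest E18.5 control was 4.75 log2 units above the highest mutant. The difference of -5.53 between mutants and controls was the deepest measured among the 8068 genes tested, and is a bound set by the floor. Between the stages controls rose by 5.41 (limma standard error, SE, 0.17), while mutants changed by 0.01 (SE 0.17).

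Sult5a1 belongs to the cytosolic sulfotransferases, which add a sulfate group to small molecules such as steroids and drugs. Its E18.5 controls read 7.61, 7.69, 6.97, 7.33 and 7.53, and its E18.5 mutants 4.86, 4.79, 5.28, 5.08 and 5.01. The E16.5 controls read 4.68, 5.49, 4.72, 5.04 and 5.40, and the E16.5 mutants 4.99, 5.08, 4.60, 5.06 and 4.64. All 20 values were above the dim border. By this border neither the E18.5 difference nor the change between the stages is limited by the floor. The same holds for Dpep1, described below, at E18.5 but not at E16.5. The level of low values differed between probe sets, and whether the floor of the Sult5a1 probe set lies above the border was not tested. Mutants stayed at the E16.5 level (change 0.13, SE 0.17) while controls rose 5.13-fold, a log2 rise of 2.36 (SE 0.17). The E18.5 mutants had 18.6% of the control level, and their mean of 5.0 ± 0.19 (SD, n = 5) was within the spread of the E16.5 controls, 5.07 ± 0.37.

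Slc7a10 encodes Asc-1, the light subunit of a transporter for small neutral amino acids that pairs with the heavy chain Slc3a2. Its E18.5 controls read 5.93, 6.40, 4.44, 6.37 and 6.52 and its E18.5 mutants 1.89, 1.84, 2.33, 2.53 and 2.41. E16.5 animals of both genotypes were between 1.83 and 2.00. The third control was the low one, and 4 of 5 E18.5 mutants were above all E16.5 mutants, but by less than 1 log2 unit in values that are all dim. The mutant minus control difference was -3.73.

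Inmt encodes a methyltransferase that uses S-adenosylmethionine to methylate indole amines and thioethers and is abundant in adult lung. Its E18.5 controls read 9.38, 8.71, 4.39, 9.10 and 9.25, and its E18.5 mutants 2.30, 2.39, 3.36, 2.39 and 3.09. All 10 E16.5 animals were between 2.31 and 2.40. The control at 4.39 accounts for the wide control spread, 8.16 ± 2.13 (SD, n = 5). Without it the controls were at 9.11 ± 0.29 (n = 4) and the mutant difference was -6.40 instead of -5.46. This animal, control replicate 3, was 4.72 below the mean of the other 4 controls for this gene, and the reason was not tested.

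Dpep1 encodes a membrane-anchored dipeptidase that cleaves leukotriene D4 and the cysteinylglycine left from glutathione breakdown. Its brighter probe set read 10.41, 10.22, 9.44, 10.14 and 10.37 in E18.5 controls and 4.79, 4.72, 6.02, 4.44 and 5.85 in E18.5 mutants. At E16.5 its controls read 2.44, 2.75, 2.47, 3.62 and 5.41 and its mutants 2.62, 2.47, 2.72, 2.62 and 2.47. The mutants therefore did rise between the stages, all 5 being above all E16.5 mutants, by 2.58 (SE 0.44), while controls rose by 6.78 (SE 0.44). Both rises start from values that are mostly dim, so they are bounds. Its other probe set gave the same order, with E18.5 controls at 9.03 ± 0.43, E18.5 mutants at 3.94 ± 0.83, E16.5 controls at 2.95 ± 0.97 and E16.5 mutants at 2.10 ± 0.04 (SD, n = 5 each).

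Xdh encodes xanthine dehydrogenase, the enzyme that makes uric acid at the end of purine breakdown. Its E18.5 controls read 9.36, 9.0, 7.83, 9.21 and 9.38 and its E18.5 mutants 3.86, 3.65, 5.44, 3.88 and 4.62. E16.5 controls read 2.95, 3.54, 3.21, 3.97 and 6.07 and E16.5 mutants 2.77, 2.82, 2.94, 2.83 and 3.05. As for Dpep1, all 5 E18.5 mutants were above all 5 E16.5 mutants (rise 1.41, SE 0.47), but the E18.5 mutants overlapped the E16.5 controls. Controls rose by 5.01 (SE 0.47), and the E18.5 difference was -4.67.

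Lims2 encodes PINCH2, an adaptor that joins integrin-linked kinase at sites where cells hold on to matrix. Its E18.5 controls read 6.67, 6.48, 5.18, 6.44 and 6.49 and its E18.5 mutants 2.34, 2.36, 3.03, 2.38 and 2.47. The 10 E16.5 animals were between 2.32 and 2.37. Mutant replicate 3 stood above the other E18.5 mutants, still below the dim border. The E18.5 difference was -3.74.

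Aldh1l1 encodes the folate enzyme that turns 10-formyltetrahydrofolate into tetrahydrofolate and carbon dioxide, and is best known as a marker of astrocytes. Its brighter probe set read 5.14, 5.22, 4.4, 4.56 and 5.68 in E18.5 controls and 2.62, 2.17, 2.85, 2.18 and 2.48 in E18.5 mutants. E16.5 animals were between 1.95 and 2.21. The E18.5 controls were thus close above the dim border, and the difference of -2.54 is the one of the 8 resting on the dimmest control values. Its second probe set was between 1.79 and 1.87 in all 20 animals and showed neither the rise nor the fall.

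The change between the stages sums up these patterns. In the plot of the change in each genotype, controls rose by 2.36 to 6.78 over the 8 genes and mutants by 0.01 to 2.58. Of the 8 genes, 7 had a dim E16.5 control mean, so their rises are bounds and have no order. For Sult5a1, above the dim border in every animal, the mutant rise was 5.40% of the control rise on the log2 scale. A further 359 genes rose by 2 or more log2 units in controls, and their median share was 67.5% (5th to 95th percentile 19.0% to 95.8%), with 134 of them also dim in E16.5 controls. These shares rest on the E18.5 animals that chose the genes. In controls all 5 E18.5 animals were above all 5 E16.5 animals in 8 of 8 genes, against 25.9% of all genes tested and 96.9% of the 359 other rising genes. In mutants this held in 3 of 8 (Dpep1, Xdh and Aldh1l1), against 22.1% of all genes tested and 83.3% of the 359. The order of levels was E18.5 controls highest in every gene, then E18.5 mutants, except in Slc10a6 and Sult5a1, where the E18.5 mutant mean was below that of the E16.5 controls by 0.13 and 0.06, less than their spread. The animals of these 2 groups overlapped in all 8 genes, as did E16.5 controls and E16.5 mutants.

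**Figure D2:**
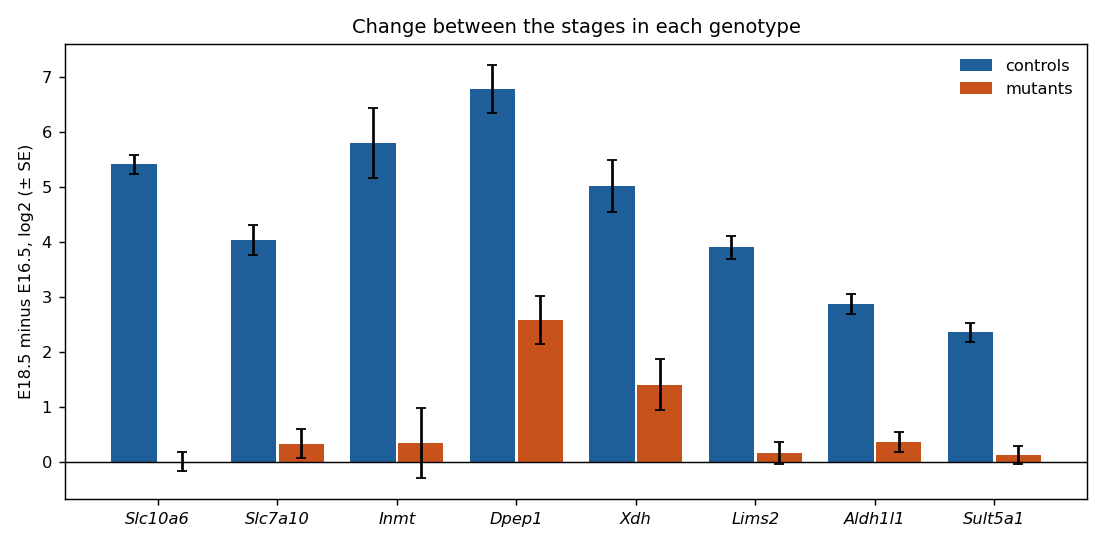
Log2 change from E16.5 to E18.5 (bars, ± SE from the limma fit, 5 animals per group) in controls and in mutants for the brightest probe set of each gene. Control bars lie between 2.36 and 6.78, and mutant bars are under 1 except for Dpep1 (2.58) and Xdh (1.41). All genes but Sult5a1 start from dim control means, so their bars are bounds.

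Within the E18.5 groups, the 8 genes varied together from animal to animal. Control replicate 3 was the lowest E18.5 control in 8 of 8 genes, by 0.57 (Sult5a1) to 4.72 (Inmt) below the mean of the other 4, and mutant replicate 3 or 5 was the highest E18.5 mutant in 7 of 8. The same animals stood out in the 359 other genes that rose by 2 or more in controls, of which 280 (78%) had control replicate 3 lowest and 332 (92.5%) had mutant replicate 3 or 5 highest. Without control replicate 3 the 8 differences were larger, from -6.40 (Inmt) to -2.54 (Sult5a1). The lowest control remained above the highest mutant in each of the 8 genes with this animal included, by 1.03 (Inmt) to 4.75 (Slc10a6).

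**Figure D3:**
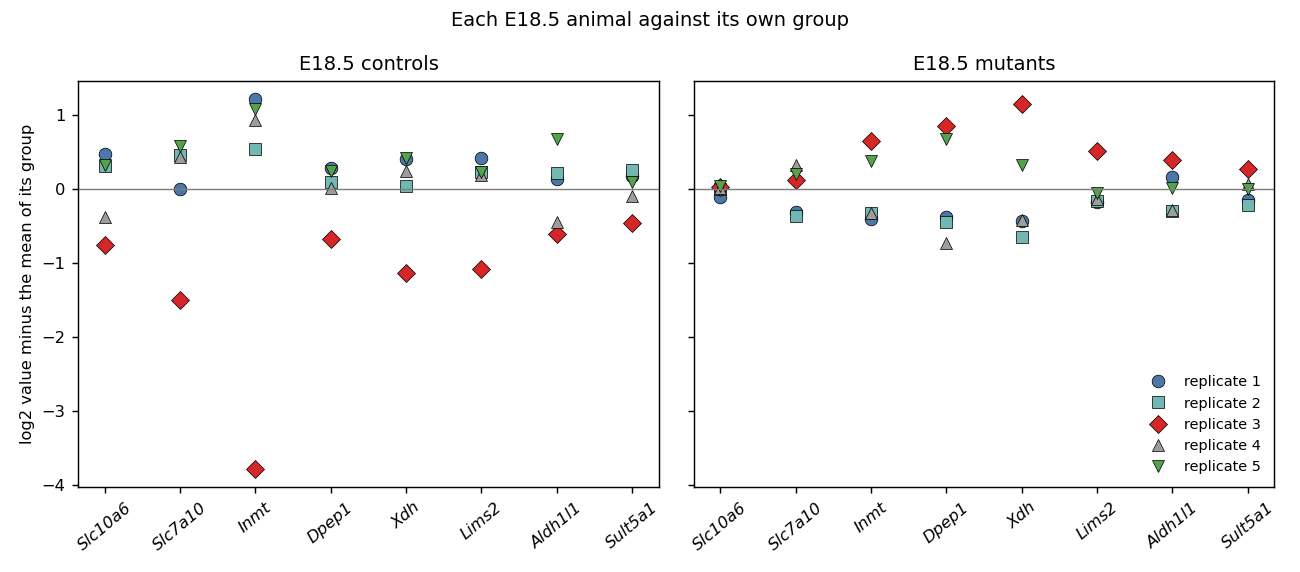
Each E18.5 animal's log2 value minus the mean of its own group (left controls, right mutants, 5 animals each) for the 8 genes. Control replicate 3 is the lowest control in every gene, and mutant replicate 3 is the highest mutant in 6 of them.

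At E16.5 the comparison of mutants with controls asks whether these genes already differed before their rise. The rule that chose the genes used falls at E18.5 and not these animals, though earlier results of these data were known at the choice. The spread in this fit is pooled over all 20 arrays, E18.5 animals included, so that Inmt has an SE of 0.64 although its E16.5 values had an SD of 0.03 in each genotype. A fit of the 10 E16.5 arrays alone also called 0 of the 8. None of the 8 was called (limma, Benjamini-Hochberg adjusted p under 0.05 over 8068 genes). Among the 8, Xdh alone had an unadjusted p under 0.05, against 356 of all 8068 genes tested. Of all genes tested, 0.198% were called lower and 0.0496% higher at E16.5. The arrays are separate animals, so these p-values rest on the spread between animals. Most of the 8 were at the floor in both genotypes. Inmt, Lims2, Slc7a10, Aldh1l1 and Slc10a6 were dim in all 10 animals, so a loss could not have been seen in them.

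Sult5a1, above the dim border in all 10 animals, differed by -0.19 at E16.5 (95% interval -0.54 to 0.16, limma adjusted p = 0.9999). With 1 array left out the value was -0.29 (without E16.5 control replicate 1) to -0.0851 (without E16.5 control replicate 2). Xdh differed by -1.06 (interval -2.04 to -0.09, unadjusted p = 0.0340, adjusted p = 0.990) and Dpep1 by -0.76 (interval -1.68 to 0.16, adjusted p = 0.9999). For Xdh 4 of 5 mutants were below all controls, for Dpep1 0 of 5, and for the second Dpep1 probe set 4 of 5. Both differences leaned on control replicate 5, in which Dpep1 was 5.41 and Xdh 6.07. Without it they were -0.24 and -0.53. This animal was also the single female among the E16.5 controls, and with sex in the fit the differences were -1.13 (adjusted p = 0.666) and -1.61 (adjusted p = 0.511). The part of sex in them was not tested further.

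Markers of other cell types and tissues were read beside these results. Of markers from outside the lung many were dim in every array. Of 8 kidney proximal tubule markers 5 were dim in all 20 arrays, and the mean of the list was 2.66 to 2.91. Of 7 thymus markers 7 were dim, and of 7 liver markers 4. The mean of the liver list varied more, at 2.81 to 4.05 in E18.5 controls and 2.65 to 3.66 in E18.5 mutants. Of 9 lipofibroblast and adipocyte markers, the adipocyte genes Adipoq, Cidec, Lep and Retn were dim in all arrays. The mean of that list was 6.04 to 6.14 in E18.5 controls and 5.54 to 5.97 in E18.5 mutants. The mesothelial list (7.72 to 8.38 against 6.98 to 7.32, with Wt1 dim) and the endothelial list (9.71 to 10.16 against 9.47 to 9.70) were also lower in all E18.5 mutants. The fibroblast list overlapped (9.89 to 10.54 against 9.83 to 10.11, with Twist1 dim), as did smooth muscle (7.56 to 8.76 against 7.70 to 8.12), macrophage (6.83 to 7.17 against 6.39 to 7.05), cardiac muscle (7.65 to 8.51 against 7.68 to 8.05) and erythroid genes (5.91 to 7.62 against 5.26 to 5.93). The part of these shifts in the falls of the 8 genes was not tested.

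The relatives of the 8 genes in their families and pathways were examined next, as 135 listed genes of which 108 were on the array and 62 were tested. None of the 62 was called at E16.5 by limma. An unadjusted p under 0.05 was found for 3 of them (Zyx, Slc46a1 and Sult1a1), against 356 of all 8068 genes tested. At E18.5, 15 (24.2%) were called lower and 13 (21.0%) higher in mutants, against 15.9% and 18.6% of all genes tested, so the relatives as a whole were near the background. Their median difference was -0.08, against 0.03 over all genes. In the family paragraphs below, a gene that fell was lower in E18.5 mutants than in E18.5 controls, unless stages are named. From E16.5 to E18.5 in controls 27 (43.5%) were called higher, against 35.3% of all genes, and 23 (37.1%) lower, against 35.5%. In mutants the numbers were 19 (30.6%) higher, against 28.7%, and 22 (35.5%) lower, against 27.6%.

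**Figure D4:**
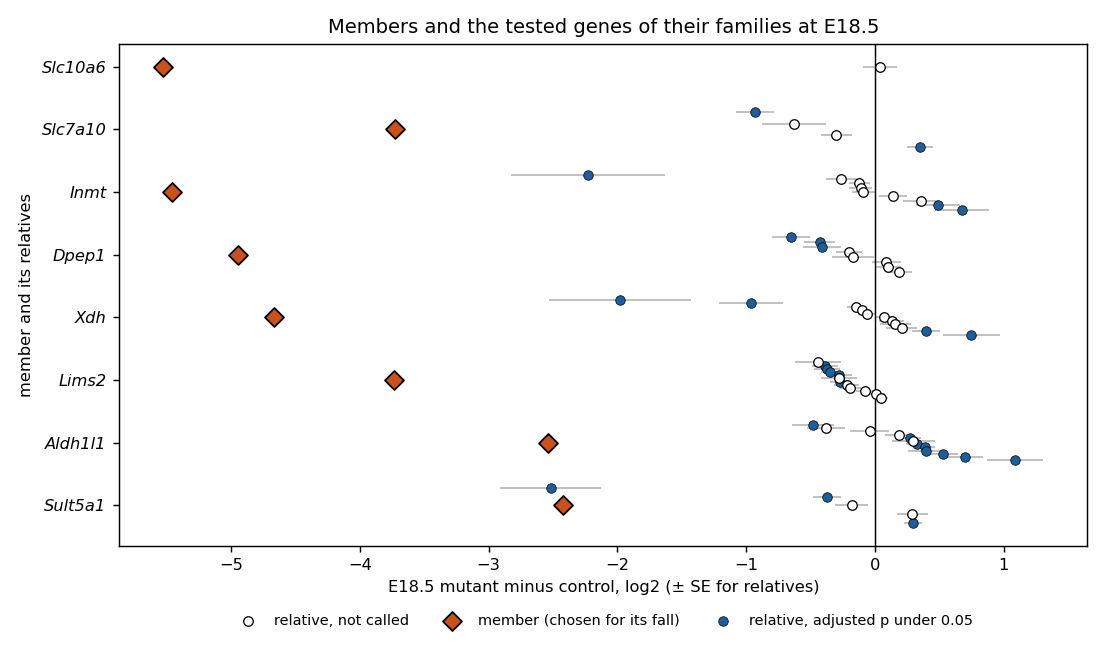
E18.5 mutant minus control log2 difference of each of the 8 genes (diamonds, chosen for their falls) and of the tested genes of its family or pathway (circles, ± limma SE, filled where adjusted p was under 0.05). The relatives lie between -2.52 (Sult1a1) and 1.09 (Mthfd2), nearer 0 than the gene they are listed with, except Sult1a1 beside Sult5a1 at -2.42.

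Among sulfotransferases and sulfate donors, 2 of 5 tested genes were lower and 1 was higher (15.9% and 18.6% of all genes). Sult1a1, which sulfates phenols, fell by 2.52 (SE 0.39, limma adjusted p = 1.01e-04). Its controls were at 9.65 ± 0.39 and its mutants at 7.13 ± 0.69 (SD, n = 5 each), with 5 of 5 mutants below all controls. Unlike Sult5a1 it rose in mutants between the stages, by 3.72 against 5.18 in controls. The mutant rise starts from a dim E16.5 mean and is a bound. The enzymes that make the sulfate donor moved apart, Papss2 by -0.37 (a call lost in a fit of the 10 E18.5 arrays alone) and Papss1 by 0.30. The SLC10 carriers left 1 tested relative, Slc10a3, at 0.04 (SE 0.13, adjusted p = 0.836).

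Among 4 tested genes of the SLC7 amino acid transporters and their partners, 1 was lower and 1 was higher in E18.5 mutants (15.9% and 18.6% of all genes). Slc7a7, a transporter of cationic amino acids, was lower by 0.93 (SE 0.15, limma adjusted p = 1.18e-04). Slc7a6 was higher by 0.35 (SE 0.10, adjusted p = 0.010). The heavy chain Slc3a2, the partner of Slc7a10, was at -0.30 (adjusted p = 0.0571).

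Of 9 methyltransferases and genes of the S-adenosylmethionine cycle, 1 was lower and 2 were higher (15.9% and 18.6% of all genes). Glycine methyltransferase Gnmt fell by 2.23 (SE 0.60, adjusted p = 0.00776), with 3 of 5 mutants below all controls. Mutants were widely spread (5.07 ± 1.89, SD, n = 5), and Gnmt rose in both genotypes, by 5.12 in controls and 3.0 in mutants. Both rises start from dim E16.5 means and are bounds. Its call was lost in a fit of the 10 E18.5 arrays alone. Mat1a (0.68, adjusted p = 0.0162) and Ahcy (0.49, adjusted p = 0.0330) were higher in E18.5 mutants than in E18.5 controls. Mat1a lost its call without E18.5 control replicate 1 and Ahcy without any of 7 single E18.5 animals. Nnmt, the nearest relative of Inmt, was dim in 19 of the 20 animals and was not tested.

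In the list of dipeptidases and glutathione or leukotriene genes 3 of 8 were lower (15.9% of all genes). The leukotriene synthesis helper Alox5ap fell by 0.65 (SE 0.15, adjusted p = 0.00286) and the glutathione synthesis enzymes Gclc by 0.43 (adjusted p = 0.0110) and Gss by 0.41 (adjusted p = 0.0442). Gss lost its call in 12 of 20 fits that left out 1 animal. Dpep3 was between 2.43 and 2.63 in all animals.

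In purine metabolism 2 of 11 were lower and 2 higher (15.9% and 18.6% of all genes). Aox3, an aldehyde oxidase related to Xdh in sequence and cofactor, fell by 1.98 (SE 0.55, adjusted p = 0.00989). Controls were at 7.26 ± 0.92 and mutants at 5.28 ± 1.52 (SD, n = 5 each), 3 of 5 mutants were below all controls, and the call was lost in a fit of the 10 E18.5 arrays alone. Between the stages Aox3 rose by 4.79 in controls and by 2.57 in mutants, where Xdh rose by 5.01 and 1.41. The E16.5 means of both genes were dim in both genotypes, so these rises are bounds and have no order. In E18.5 mutants the deaminase Ampd3 was lower by 0.96 (adjusted p = 0.00586), and adenosine deaminase Ada was higher by 0.75 (adjusted p = 0.0129). Aox1 was mostly dim, with E18.5 controls at 3.64 ± 0.98 and mutants at 3.56 ± 0.83, and was not tested.

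Of 12 tested partners of Lims2, 5 were called lower and 0 higher in E18.5 mutants (15.9% and 18.6% of all genes), and 10 had risen in controls between the stages (35.3% of all genes). Among those called, the 3 with the largest falls were zyxin Zyx (-0.39, SE 0.10, adjusted p = 0.00589), vinculin Vcl (-0.37, SE 0.10) and kindlin-2 Fermt2 (-0.35, SE 0.07), and integrin-linked kinase Ilk itself fell by 0.27. The close relative Lims1 did not pass the test by its brightest probe set: controls were at 11.67 ± 0.10, mutants at 11.59 ± 0.06 and the difference was -0.08 (SE 0.07, adjusted p = 0.353). Its second probe set was at 10.84 ± 0.05 in controls and 10.65 ± 0.12 in mutants. The third was at 7.59 ± 0.28 and 7.51 ± 0.18 (SD, n = 5 each), and neither was tested. The count of lower genes was 4 to 7 over the 20 fits that left out 1 animal, with 7 without E18.5 control replicate 3, and Pxn (-0.28) lost its call in 6 of them.

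Of 12 tested folate genes, 7 were called higher and 1 lower in E18.5 mutants (18.6% and 15.9% of all genes). In controls 8 had fallen and 1 had risen between the stages (35.5% and 35.3% of all genes). Without E18.5 control replicate 3 the counts in E18.5 mutants were 8 higher and 2 lower. In E18.5 mutants the mitochondrial enzyme Mthfd2 was higher by 1.09 (SE 0.22, adjusted p = 9.21e-04), the folate carrier Slc19a1 by 0.70 (SE 0.14, adjusted p = 8.42e-04) and Mtfmt by 0.53 (SE 0.12, adjusted p = 0.00216). Mtrr was lower by 0.48 (adjusted p = 0.0261), a call lost without E18.5 control replicates 1 or 4 or mutant replicate 2. The count of higher genes was 5 to 8 over the 20 fits that left out 1 animal.

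On the chromosomes, Sult5a1 and Dpep1 are adjacent coding genes that point away from each other, with RefSeq starts 28 kb apart. For each of the 8 genes the nearest tested coding gene on either side in the RefSeq order (GRCm38.p6) was read. Of these 14 other neighbours 3 were called lower at E18.5 and 0 higher, against 15.9% and 18.6% of all genes. They were Klf15 beside Aldh1l1 (-2.41, SE 0.38, limma adjusted p = 1.12e-04), a transcription factor known to be induced by glucocorticoids, the water channel Aqp1 near Inmt (-1.16, SE 0.21, adjusted p = 3.68e-04) and Aff1 near Slc10a6 (-0.77, SE 0.23, adjusted p = 0.0157). The outer neighbours of the chromosome 8 pair, Chmp1a beside Dpep1 (-0.07, SE 0.08) and Spg7 beyond Sult5a1 (0.05, SE 0.04), were not called (adjusted p = 0.558 and 0.358).

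The genes whose profile over the 20 animals was most like the mean of the 8, by root mean square difference of centred log2 values, were Clec3b (0.56) and Ckmt1 (0.56), Sphk1 (0.57), Ms4a4d (0.62), Spon1 (0.63), Scnn1a and Pdk4 (0.66 each), Adhfe1 and Fmo2 (0.67 each) and Vnn3, Bmp6 and Fxyd4 (0.72 each). The median over all other genes was 2.01. They encode among others a plasminogen-binding lectin (Clec3b), a mitochondrial creatine kinase (Ckmt1), the kinase that makes sphingosine 1-phosphate (Sphk1) and the alpha subunit of the epithelial sodium channel (Scnn1a). Ms4a4d rose by 3.32 in controls and by 0.03 in mutants, with means that were dim in both E16.5 groups and in E18.5 mutants. Spon1 rose by 5.17 and 1.93, which resembles Dpep1. Within the 8, Slc7a10 and Lims2 were the closest pair (0.25), then Aldh1l1 and Sult5a1 (0.34), and Dpep1 was closest to Xdh (0.78). Of other genes, Ms4a4d was nearest to Slc7a10 (0.38) and Lims2 (0.39), Bmp6 to Aldh1l1 (0.26), Eepd1 to Sult5a1 (0.31), Fmo1 to Xdh (0.65), Spon1 to Dpep1 (0.88), Clec3b to Slc10a6 (0.93) and Car4 to Inmt (0.98).

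The choice of the 8 had no numeric border. As measured, with dim mutant values standing for bounds, Slc10a6, Inmt, Dpep1 and Xdh had the 4 deepest E18.5 falls of all 8068 genes, Lims2 and Slc7a10 ranked 7 and 8, Aldh1l1 ranked 37 and Sult5a1 ranked 43. A further 35 genes fell more than Sult5a1 and are not among the 8. The deepest of them were Hsd11b1, which regenerates active glucocorticoid, at -4.12 (SE 0.43), the carbonic anhydrase Car4 at -3.86 (SE 0.72) and the monooxygenases Fmo2 at -3.69 (SE 0.39) and Fmo1 at -3.67 (SE 0.44). Next came Spon1 (-3.53), Lcn2 (-3.52), Ms4a4d (-3.51), Clec3b (-3.45), Zbtb16 (-3.27), Ckmt1 (-3.24), Pdk4 (-3.17) and Sphk1 (-3.16). Hsd11b1 had another course. Its means at E16.5 were 8.02 in controls and 4.50 in mutants, a fall of 3.52 (SE 0.43, limma adjusted p = 2.24e-04), and at E18.5 they were 12.41 and 8.29, so it rose in both genotypes from levels that already differed.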

How the data were processed

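The authors deposited 1 table of log2 values for 22690 probe sets on 20 arrays, which the submitters' processing notes attribute to GCRMA. That method corrects background by probe sequence, equalises the arrays and leaves low probe sets near a floor, whose level differed between the probe sets here. No version is given. Array medians were 5.70 to 5.87, and with 5 arrays in a group their number limits precision. Groups came from the sample titles. Probe sets were named by the platform annotation: 20380 name 1 gene, 691 several and 1555 none, with 64 array controls.

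The brightest probe set stood for each of 12393 genes, and 8068 with a value above 4 in at least 5 arrays were tested. Slc10a6, Slc7a10, Inmt, Lims2 and Aldh1l1 passed this filter only through the 5 E18.5 controls. limma 3.58.1 in R 4.3.3 was fitted to all 20 arrays (lmFit, eBayes, two-sided, Benjamini-Hochberg, 0.05), and tested on simulated data. Figures used matplotlib 3.10.9.

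The 8 genes, the 8 family lists and the 12 marker lists were chosen with earlier results of these data known. Of each family, the text names up to 3 called genes with the largest E18.5 difference, listed nearest relatives, the 12 genes most like the mean of the 8 and the nearest to each, the 12 deepest falls among other genes, and a few further members chosen after their values were seen (Ilk, Slc3a2, Mtrr, Dpep3). Chromosomal neighbours and the search for promoter motifs were added after the values were seen. Dpep2 and Aldh1l2 were not analysed here. Motif letters and promoters are from RefSeq tables (GRCm38.p6).

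Same-numbered animals of the 2 genotypes were checked for pairing: correlations of their deviations were -0.10 to 0.60 at E16.5 and -0.43 to 0.21 at E18.5. The numbers were not treated as pairs in the main fit. At E16.5, however, 4 of 5 pairs correlated above 0.1, and 4 of 5 controls correlated best with their own number. A fit with a replicate block is given below.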

Additional observations from a re-analysis of the deposited data

Results flagged for a closer look

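Of 40 groups of 5 animals over the 10 probe sets, 12 had an animal far from the other 4 by Dixon's test. Chance flags about 1 in 20 groups. Control replicate 3 at E18.5 accounts for 6 of them: Inmt at 4.39 (others 8.71 to 9.38), Slc7a10 at 4.44 (5.93 to 6.52), Dpep1 at 9.44 (10.14 to 10.41), Xdh at 7.83 (9.0 to 9.38), Lims2 at 5.18 (6.44 to 6.67) and the second Aldh1l1 probe set at 1.81 (1.84 to 1.85), the last in values that are all dim. Lims2 stood out in E18.5 mutant replicate 3 at 3.03 (others 2.34 to 2.47).

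The other flags are also in dim values. Slc10a6 was at 2.55 in E16.5 control replicate 5 (others 2.08 to 2.12) and at 1.96 in E18.5 mutant replicate 1 (2.07 to 2.11). Inmt was at 2.31 in E16.5 mutant replicate 1 (2.36 to 2.37), the second Dpep1 probe set at 2.16 in E16.5 mutant replicate 4 (2.06 to 2.09) and the second Aldh1l1 probe set at 1.82 in E16.5 control replicate 1 (1.84 to 1.85).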

How the results depend on the processing

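No alternative, including leaving out each of the 20 arrays in turn, called any of the 8 genes at E16.5. Slc10a6, Slc7a10, Inmt, Lims2 and Aldh1l1 were dim in all 10 E16.5 animals, so no setting could have shown a loss in them. The result therefore bears only on Sult5a1 and on Dpep1 and Xdh, which were mostly dim. With a replicate block in the model 0 of the 8 were called and 17 genes in all, against 20; 4 of 5 pairs correlated above 0.1 at E16.5 and 1 of 5 at E18.5, and 4 and 0 of 5 controls correlated best with their own number. The calls among all genes at E16.5 were 9 with only the 10 E16.5 arrays, 43 with array weights, 8 with sex as a covariate, 11 at an adjusted p under 0.01, and 13 to 22 with 1 array left out. The 13 came without E16.5 mutant replicates 4 or 5. At an adjusted p under 0.01 the relatives called at E18.5 were 8 lower and 7 higher, and all genes called were 1645 of 2784. With a 1.5-fold minimum the relatives were 6 lower, 4 higher, and 15 risen in controls. All genes were then 1060 at E18.5, 3171 over time in controls and 2057 in mutants. The E16.5 difference changed sign in dim values, with Lims2 (0.0024) at -0.0128 with median centring, -0.0053 with array weights, -0.14 with sex and -0.0049 to 0.0067 with 1 array left out, Aldh1l1 (-0.0209) at 0.0140 with array weights, 0.0073 with sex and -0.0500 to 0.0150 with 1 array left out, and Inmt (-0.0087) at -0.0223 to 0.0022. The cause was not tested. A minimum of 10 arrays above 4 left Dpep1 and Sult5a1 to test, and with the mean of all probe sets Aldh1l1 was not tested. Leaving out E18.5 control replicate 3 and E16.5 control replicate 5 together, chosen after seeing the data, gave 20 relatives lower and 15 higher at E18.5.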
